A study of Arabidopsis thaliana with 6 samples.

Results

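The circadian clock of Arabidopsis times gene activity through output genes that carry its signal to growth, RNA processing and flowering. The 10 output genes described here are RVE1, RVE2, GRP7, GRP8, CDF1, CDF2, CDF3, CDF5, FKF1 and COL2, taken by their gene identifiers from the 38189 genes in the count files, and all 10 were found. They were measured by RNA sequencing in hb34 mutant seedlings (n = 3 libraries) and in wild-type seedlings (WT, n = 3 libraries). Both groups were in the Columbia background, were 10 days old, had a mock treatment and grew on MS medium in long days (16 h light, 8 h dark) at 22 °C. The mutated gene, HB34, belongs to the zinc finger homeodomain family of transcription factors. The sources used here give neither the kind of hb34 allele, nor the number of plants in a library, nor the hour of harvest.

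In the clock, the dawn proteins CCA1 and LHY repress evening genes by binding a short promoter sequence called the evening element. RVE1 and RVE2 encode MYB-like transcription factors related to CCA1 whose transcripts peak around dawn, and RVE1 is known for promoting auxin production in the day. The CDF genes encode DOF repressors of the flowering genes CO and FT and are also morning genes. FKF1 is a blue-light receptor and F-box protein that, with GI, removes CDF proteins late in long days. COL2 encodes a relative of CO that is clock-controlled and high near dawn. GRP7 and GRP8 encode glycine-rich RNA-binding proteins with an evening peak, and each lowers its own and the other's transcript through altered splicing.

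The 250 bases before the annotated start of each gene were searched on both strands for the evening element (AAAATATCT), the CCA1-binding site (AAAAATCT) and the G-box (CACGTG). No letters of the 3 motifs are shared where they occur in these windows. The sequences of GRP7 and GRP8, the evening pair, and of RVE1 and CDF2, the genes with the highest positive differences in hb34, are shown 5′ to 3′ on the strand of the gene, from the TAIR10.1 genome of RefSeq, with matches to any of the 3 motifs in capitals. The windows are at chr2:9266558-9266807 (minus strand) for GRP7, chr4:18275217-18275466 (minus strand) for GRP8, chr5:5692993-5693242 (minus strand) for RVE1 and chr5:15878448-15878697 (plus strand) for CDF2.
GRP7: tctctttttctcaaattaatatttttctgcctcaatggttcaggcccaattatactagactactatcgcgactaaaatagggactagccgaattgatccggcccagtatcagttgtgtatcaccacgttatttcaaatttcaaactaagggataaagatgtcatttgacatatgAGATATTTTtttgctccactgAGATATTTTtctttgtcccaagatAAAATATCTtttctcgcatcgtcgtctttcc
GRP8: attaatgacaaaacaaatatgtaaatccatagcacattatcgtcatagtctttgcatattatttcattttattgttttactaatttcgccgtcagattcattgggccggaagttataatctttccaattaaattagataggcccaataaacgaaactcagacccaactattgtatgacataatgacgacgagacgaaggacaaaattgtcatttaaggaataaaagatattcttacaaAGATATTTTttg
RVE1: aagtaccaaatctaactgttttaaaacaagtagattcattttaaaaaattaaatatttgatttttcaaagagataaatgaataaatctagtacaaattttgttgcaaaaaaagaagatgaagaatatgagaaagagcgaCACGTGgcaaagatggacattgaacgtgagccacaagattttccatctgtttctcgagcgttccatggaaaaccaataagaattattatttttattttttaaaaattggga
CDF2: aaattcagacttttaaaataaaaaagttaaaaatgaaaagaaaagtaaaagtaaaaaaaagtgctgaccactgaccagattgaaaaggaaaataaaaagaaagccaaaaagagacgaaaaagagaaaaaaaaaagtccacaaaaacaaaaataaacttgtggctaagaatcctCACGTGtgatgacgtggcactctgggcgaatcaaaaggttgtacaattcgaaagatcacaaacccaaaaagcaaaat
The evening element lay within 250 bases of the start in 4 of the 10 genes, GRP7, GRP8, FKF1 and COL2, against 2.36% of 27443 protein-coding genes. GRP7 held 3 copies, starting 76, 55 and 31 bases before its start, while GRP8 held 1. The G-box was present in RVE1, RVE2 and CDF2, against 6.49% of all genes, and the CCA1-binding site in RVE2 and CDF5, against 6.69%. CDF1 and CDF3 had none of these letters in the window. A match of letters is a description and no evidence of binding.

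The libraries held between 17562497 and 19670468 counts. HB34 itself had 1.02, 2.27 and 1.18 CPM (counts scaled to library size) in hb34 and 83.3, 91.7 and 93.0 CPM in WT (log2 fold change -5.90, SE 0.254, edgeR adjusted p = 0.000419), in the direction of the genotype labels. Labels and protocol name the material differently, so the word seedlings is not certain, and leaf and root markers were read for this. All 8 leaf markers were tested and their summed level was 78857.6 to 88801.2 CPM in hb34 and 79875.0 to 93731.2 CPM in WT. Of the 10 root markers 0 reached the count needed for a test, and their summed level was 0.0537 to 0.264 CPM in hb34 and 0 to 0.358 CPM in WT. The libraries thus held leaf transcripts and hardly any reads of these root markers, so they are not shown to include roots. The leading principal component, with 55.5% of the variance in log2 CPM, set hb34 replicate 2 apart at -82.1. The other hb34 libraries had scores of -8.5 and -17.6 there, and WT libraries had scores of 25.8 to 41.2. Values without hb34 replicate 2 are therefore given beside those of the full set for the tested clock output genes and the list genes named with a p. In bulk RNA, fewer cells of a type and less RNA per cell cannot be told apart, and nothing in the labels says that replicates are separate cultures, so p-values speak only of the spread among these libraries, which may be technical.

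Of the 10 genes 9 had enough counts to be tested. By the quasi-likelihood test of edgeR, Benjamini-Hochberg adjusted across 17905 genes with a threshold of 0.05, RVE1 rose and GRP8 fell in hb34. That is 2 of 9, 1 gene in each direction, where 6.27% of all tested genes were called, 3.77% higher and 2.5% lower. CDF2 lay higher in every hb34 library with an adjusted p just above the threshold, and the other 6 did not pass. Log2 fold changes are hb34 minus WT. Their median was -0.00 over the 9 genes and 0.0117 over all tested genes. CPM of the 3 hb34 libraries lay entirely above WT for RVE1 and CDF2 and entirely below for GRP8, and such separation was seen above WT for 17.8% and below WT for 17.5% of all tested genes.

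**Figure D1:**
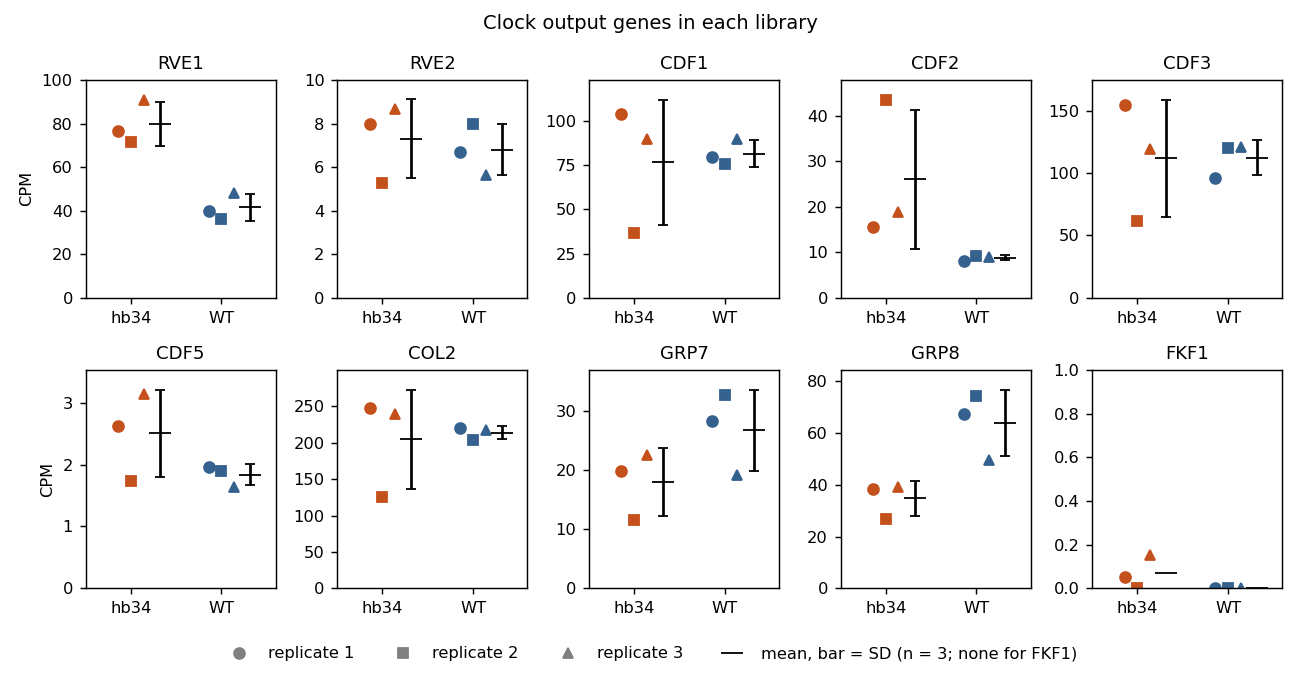
CPM of the 10 clock output genes (vertical axes, from 0 and different in each panel) in the 3 hb34 and 3 WT libraries, with replicate numbers as symbols and the mean with its SD as a black bar (no SD for FKF1). RVE1 and CDF2 lie above all WT libraries and GRP8 below them, while hb34 replicate 2 (squares) is lowest for CDF1, CDF3 and COL2.

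RVE1 (gene-AT5G17300, chromosome 5, 5690225 to 5692992, minus strand, 5 exon blocks) rose in hb34. It had 76.7, 71.4 and 91.0 CPM in hb34 and 40.0, 36.2 and 48.3 CPM in WT. The lowest hb34 library was thus well above the highest WT library, and hb34 replicate 2 was close to the other hb34 libraries. The means were 79.7 ± 10.2 CPM in hb34 and 41.5 ± 6.16 CPM in WT (SD, n = 3 each), a 1.92-fold difference (log2 fold change 0.94, SE 0.153, 95% interval 0.59 to 1.3, edgeR adjusted p = 0.0204). Without hb34 replicate 2 the log2 fold change was 1.02 (adjusted p = 0.00764). The call was lost without hb34 replicate 3 (adjusted p = 0.0525), without WT replicate 1 (0.116) and without WT replicate 2 (0.109), with log2 fold changes between 0.84 and 0.92. Hardly any gene was called in those WT fits. Over all tested genes 1 was higher and 2 lower without WT replicate 1, and 1 higher and 3 lower without WT replicate 2. On the other strand AT5G17305 shares 225 of the 2017 exonic bases of RVE1 and was listed at 0 in all libraries.

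RVE2 (gene-AT5G37260, chromosome 5, 14751344 to 14753088, minus strand) did not pass the test. It had 8.00, 5.28 and 8.69 CPM in hb34 and 6.73, 8.01 and 5.67 CPM in WT. The groups overlapped, and hb34 replicate 2 was the lowest of the 6 libraries. Its log2 fold change was 0.11 (95% interval -0.44 to 0.66, edgeR adjusted p = 0.777). The estimate for RVE1, 0.94, lies outside this interval. The interval of RVE1 (0.59 to 1.3) overlaps it, and intervals of single genes do not decide whether the 2 genes differ. With hb34 replicate 2 left out the log2 fold change of RVE2 was 0.30 (adjusted p = 0.364), and without hb34 replicate 3 it was -0.03. RVE1 CPM were 9.59, 13.5 and 10.5 times RVE2 CPM in the hb34 libraries and 5.94, 4.53 and 8.51 times in the WT libraries. All 3 hb34 ratios were above the WT ratios, a description of a ratio that was chosen after its values were seen, as were those of the GRP and CDF genes.

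GRP8 (gene-AT4G39260, chromosome 4, 18273829 to 18275216, minus strand) fell in hb34. It had 38.3, 26.9 and 39.0 CPM in hb34 and 67.3, 74.4 and 49.6 CPM in WT. The groups did not overlap, with WT replicate 3 the nearest to hb34. The means were 34.7 ± 6.81 CPM in hb34 and 63.8 ± 12.8 CPM in WT (SD, n = 3 each; log2 fold change -0.88, SE 0.203, 95% interval -1.35 to -0.40, edgeR adjusted p = 0.0484). Without hb34 replicate 2 the log2 fold change was -0.72 (adjusted p = 0.0428). The adjusted p lay near the threshold and was 0.0636 without hb34 replicate 1, 0.0702 without hb34 replicate 3. Leaving out WT replicate 1 gave 0.182, leaving out WT replicate 2 gave 0.179, and limma-voom on all libraries gave 0.0513. As given for RVE1, hardly any gene was called without WT replicate 1 or WT replicate 2.

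GRP7 (gene-AT2G21660, chromosome 2, 9265084 to 9266557, minus strand), the closest relative of GRP8 among the 10, had 19.8, 11.5 and 22.6 CPM in hb34 and 28.3, 32.7 and 19.2 CPM in WT. WT replicate 3 lay inside the hb34 range, so the groups overlapped. The log2 fold change was -0.57 (SE 0.285, 95% interval -1.23 to 0.09, edgeR adjusted p = 0.223), and -0.33 without hb34 replicate 2. GRP8 CPM were 1.93, 2.33 and 1.72 times GRP7 CPM in hb34 and 2.38, 2.28 and 2.58 times in WT. The ratios overlapped (exact permutation test of the log2 ratios, p = 0.2). The exons of the 2 genes share an identical run of at most 39 bases, and how reads from their more similar stretches were assigned was not tested. Counts are summed over all annotated exons, so the splice forms through which the 2 proteins act on their transcripts are not told apart here.

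The share of ribosomal RNA reads varied between libraries as GRP7 and GRP8 did in part. Genes annotated as rRNA took 0.028%, 0.017% and 0.029% of counts in hb34 replicates 1 to 3 and 0.047%, 0.054% and 0.015% in WT replicates 1 to 3. WT replicates 1 and 2 were the highest and WT replicate 3 and hb34 replicate 2 the lowest. GRP7 and GRP8 CPM were also highest in WT replicates 1 and 2 and lowest in hb34 replicate 2. In WT replicate 3, with the lowest share, GRP8 departed from this order, with 49.6 CPM beside 26.9 to 39.0 CPM in hb34. The order was not particular to rRNA. Mitochondrial genes took 0.006% and 0.007% of counts in WT replicates 1 and 2 and 0.002% to 0.004% in the other libraries. Plastid genes took 0.002% and 0.003% in WT replicates 1 and 2 and 0.001% in the other libraries. The part of these shares in the result was not tested.

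CDF2 (gene-AT5G39660, chromosome 5, 15878698 to 15881537, plus strand) had 15.7, 43.6 and 18.8 CPM in hb34 and 8.22, 9.19 and 9.04 CPM in WT. Every hb34 library was above every WT library, but hb34 replicate 2 stood far above the other 2. The log2 fold change was 1.56 (SE 0.381, 95% interval 0.68 to 2.45, edgeR adjusted p = 0.0532). Without hb34 replicate 2 it was 0.97, a smaller difference with less spread, and passed the threshold (adjusted p = 0.0111). DESeq2 called it as well (adjusted p = 0.000742), while limma-voom did not (0.0759). With edgeR it also passed without hb34 replicate 1 (0.0329), but not without hb34 replicate 3 (0.0645). Leaving out WT replicate 1, 2 or 3 gave 0.2, 0.182 and 0.104, and the replicate number as a block gave 0.115. Hardly any gene of the whole set was called without WT replicate 1, without WT replicate 2 or with that block.

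CDF1, CDF3 and CDF5 did not pass the test. Whether CDF3 and CDF5 differ from CDF2 in their response was not tested, and for CDF1 the ratio was tested as given below. CDF1 (gene-AT5G62430, chromosome 5, 25069093 to 25071111, minus strand), the CDF first tied to FKF1, had 103.6, 36.4 and 89.5 CPM in hb34 and 79.3, 75.3 and 89.8 CPM in WT (log2 fold change -0.09, 95% interval -0.87 to 0.69). CDF3 (gene-AT3G47500, chromosome 3, 17503883 to 17506124, minus strand), a DOF factor also tied to cold and drought tolerance, had 154.5, 61.4 and 119.5 CPM in hb34 and 96.0, 120.0 and 120.5 CPM in WT (95% interval -0.70 to 0.69). For both genes hb34 replicate 2 was the lowest of the 6 libraries and hb34 replicate 1 the highest. CDF1 and CDF3 had edgeR adjusted p of 0.875 and 0.992. Without hb34 replicate 2 their log2 fold changes were 0.25 and 0.29 (adjusted p = 0.261 and 0.265). CDF2 CPM were 0.152, 1.20 and 0.21 times CDF1 CPM in hb34 and 0.104, 0.122 and 0.101 times in WT. The 3 hb34 ratios were above the WT ratios, that of hb34 replicate 2 by far. Per kilobase of exon CDF2 stayed below CDF1 there too, with 18.0 CPM per kb for CDF2 and 25.5 for CDF1 in hb34 replicate 2.

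CDF5 (gene-AT1G69570, chromosome 1, 26161528 to 26163715, minus strand) was low, with 49, 33 and 61 counts in hb34 and 37, 32 and 32 in WT. These are 2.63, 1.74 and 3.14 CPM in hb34 and 1.96, 1.90 and 1.64 CPM in WT. hb34 replicates 1 and 3 were above WT and hb34 replicate 2 inside the WT range. The log2 fold change was 0.45 (95% interval -0.21 to 1.12, edgeR adjusted p = 0.318). With hb34 replicate 2 left out it was 0.66 (adjusted p = 0.158). On the other strand lies AT1G69572 (26161551 to 26162791), a long noncoding RNA gene that RefSeq notes as a natural antisense transcript of CDF5. It was listed at 0 counts in all 6 libraries, and 1154 of its 1155 exonic bases lie in CDF5 exons. Across the genome all 323 genes lying wholly in exons of an opposite-strand gene with at least 1000 counts were likewise listed at 0, so this 0 says nothing about the antisense RNA. Of the 1928 exonic bases of CDF5, 774 are shared with no other gene, and the sources used here do not give the strand setting of the counting, so reads from the 2 strands cannot be told apart.

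FKF1 (gene-AT1G68050, chromosome 1, 25508639 to 25510907, plus strand) was almost unread, with 1, 0 and 3 counts in hb34 and 0 in each WT library. The floor of 3 counts corresponds to 0.154 to 0.161 CPM in an hb34 library and 0.153 to 0.178 CPM in a WT library, so no library exceeded the floor. The gene did not have enough counts to be tested, no fold is given, and a difference was not detectable at this depth. Its last 21 exonic bases overlap MAP70-1 on the other strand, which had 376 to 418 counts in hb34 and 267 to 395 in WT.

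COL2 (gene-AT3G02380, chromosome 3, 487069 to 489467, minus strand) had 248.2, 126.1 and 239.0 CPM in hb34 and 220.2, 203.6 and 217.9 CPM in WT. hb34 replicates 1 and 3 were above all WT libraries and hb34 replicate 2 far below them. The log2 fold change was -0.07 (95% interval -0.62 to 0.49, edgeR adjusted p = 0.874). With hb34 replicate 2 left out it was 0.19 (adjusted p = 0.297). On the other strand AT3G02370 shares 212 and AT3G02390 shares 506 of its 2256 exonic bases. AT3G02370 had 24 to 38 counts in hb34 and 22 to 32 in WT, and AT3G02390 was listed at 0 in all libraries.

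**Figure D2:**
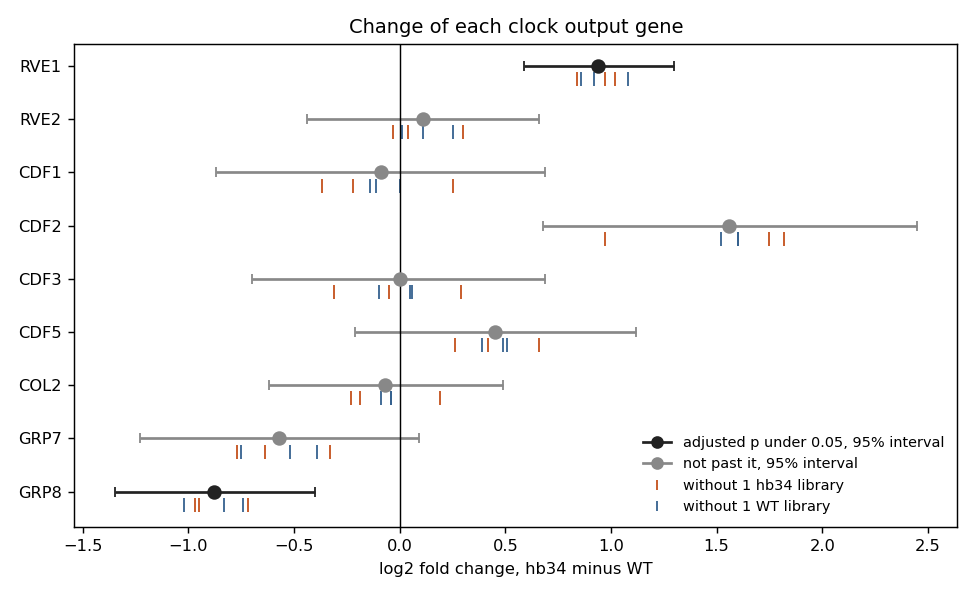
Log2 fold change, hb34 minus WT (horizontal axis), of the 9 tested clock output genes with its 95% interval from edgeR, in black where the adjusted p is under 0.05, and with ticks for the value without 1 hb34 or 1 WT library. RVE1 at 0.94 and GRP8 at -0.88 keep their sign in every such fit, while the ticks of RVE2, CDF1, CDF3 and COL2 fall on both sides of 0.

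Among the hb34 libraries, replicates 1 and 3 lay close together and replicate 2 apart in most of these genes. hb34 replicate 2 was the lowest of the 6 libraries in 6 of the 9 tested genes (RVE2, GRP7, GRP8, CDF1, CDF3 and COL2), and it was the lowest in 28.1% of all tested genes. It was the highest in 1, CDF2, and in 28.3% of all tested genes. Against the mean log2 CPM of hb34 replicates 1 and 3 it differed by -1.40 in CDF1, -1.15 in CDF3, -0.95 in COL2, -0.87 in GRP7, -0.69 in CDF5, -0.65 in RVE2, -0.52 in GRP8, -0.23 in RVE1 and 1.34 in CDF2. The median size of that difference over all tested genes was 0.29. The SD of log2 CPM was 0.82 in hb34 and 0.13 in WT for CDF1, 0.78 and 0.09 for CDF2, 0.69 and 0.19 for CDF3, and 0.55 and 0.06 for COL2, where the medians over all tested genes were 0.23 in hb34 and 0.19 in WT. For RVE1 the SD was 0.18 in hb34 and 0.21 in WT, the smallest of the 9 genes in hb34.

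**Figure D3:**
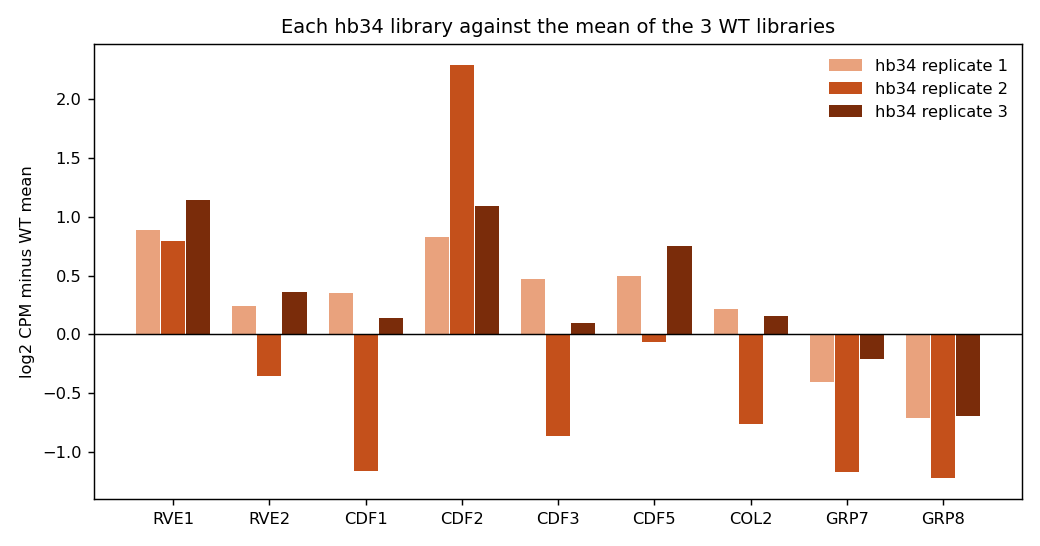
Log2 CPM of each hb34 library minus the mean of the 3 WT libraries (vertical axis) for the 9 tested clock output genes, 1 bar per hb34 library. RVE1 is positive in all 3 libraries (0.89, 0.79 and 1.14), GRP8 is negative in all 3 (-0.71, -1.22 and -0.69), and RVE2, CDF1, CDF3, CDF5 and COL2 are negative in hb34 replicate 2 alone.

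Levels of different genes were compared per kilobase of exon. In WT the order was COL2 (94.8 ± 3.98 CPM per kb), CDF3 (59.0 ± 7.38), GRP8 (57.7 ± 11.5), CDF1 (57.1 ± 5.26), GRP7 (22.9 ± 5.90), RVE1 (20.6 ± 3.06), RVE2 (6.94 ± 1.19), CDF2 (3.64 ± 0.217), CDF5 (0.950 ± 0.0897) and FKF1, listed at 0 (SD, n = 3 each). The libraries of CDF3, GRP8 and CDF1 overlapped, as did those of GRP7 and RVE1. In hb34 RVE1 stood above GRP8, with 35.4 to 45.1 CPM per kb for RVE1 and 24.3 to 35.3 for GRP8, where in WT RVE1 had 18.0 to 23.9 and GRP8 44.9 to 67.3. CDF2 had a mean of 10.8 CPM per kb in hb34 and RVE2 one of 7.47, but their libraries overlapped. With the whole-gene value divided by the length of the exonic bases that no other gene shares, an upper limit where shared bases also gave reads, CDF5 had a mean of 3.23 CPM per kb in hb34 and 2.37 in WT, and COL2 one of 132.9 in hb34 and 139.1 in WT.

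For each tested gene the most similar of 11458 other genes was found as the one with the smallest root mean square difference of gene-centred log2 CPM over the 6 libraries. These were AT5G40450 for RVE1 (difference 0.057), NF-YB2 for RVE2 (0.052), HTA2 for GRP7 (0.078), AT5G50460 for GRP8 (0.086), KAN2 for CDF1 (0.071), J8 for CDF2 (0.106), AO for CDF3 (0.078), GSTU20 for CDF5 (0.084) and AT5G54930 for COL2 (0.038). None belongs to the clock or flowering lists used here. With 6 libraries and this many candidates, these matches are a description.

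Among the core clock genes that feed these outputs, 2 of 13 tested (of 17 listed) rose and 0 fell with edgeR (by unadjusted p under 0.05, 3 higher and 0 lower; DESeq2 and limma-voom, 2 and 0 each). Over all tested genes 3.77% were called higher and 2.5% lower, and by unadjusted p under 0.05 the shares were 16.5% higher and 13.3% lower. The core clock genes that rose were PRR7, a repressor of the morning loop, at 59.9, 57.7 and 66.4 CPM in hb34 and 30.1, 30.5 and 37.6 CPM in WT (log2 fold change 0.91, SE 0.134, adjusted p = 0.0169; 0.95 with hb34 replicate 2 left out), and LNK1, a coactivator of RVE proteins, at 270.2 ± 16.6 CPM in hb34 and 175.2 ± 25.5 CPM in WT (SD, n = 3 each; 0.62, adjusted p = 0.0376; 0.67 with hb34 replicate 2 left out). GI, the partner of FKF1, had 31.7, 36.9 and 26.4 CPM in hb34 and 10.9, 22.5 and 23.9 CPM in WT (log2 fold change 0.73, adjusted p = 0.142; 0.61 with hb34 replicate 2 left out). CCA1, the dawn repressor, had 777.0, 548.6 and 756.3 CPM in hb34 and 550.1, 529.9 and 613.7 CPM in WT (log2 fold change 0.30, adjusted p = 0.225; 0.44 with hb34 replicate 2 left out). The list had a median log2 fold change of 0.15. Without WT replicate 1 or WT replicate 2 none of these 13 genes was called, but hardly any gene of the whole set was called in those fits either. The LNK1 call was also lost without hb34 replicate 1 (adjusted p = 0.0651), without hb34 replicate 3 (0.0763) and with upper quartile scaling (0.0611). The split of hb34 replicate 2 from its group was also seen in PRR9 (207.3, 62.5 and 195.8 CPM in hb34, 163.2 to 179.8 CPM in WT) and TOC1 (4.56, 15.0 and 4.73 CPM in hb34, 4.80 to 6.95 CPM in WT), a morning and an evening gene chosen after their values were seen.

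**Figure D4:**
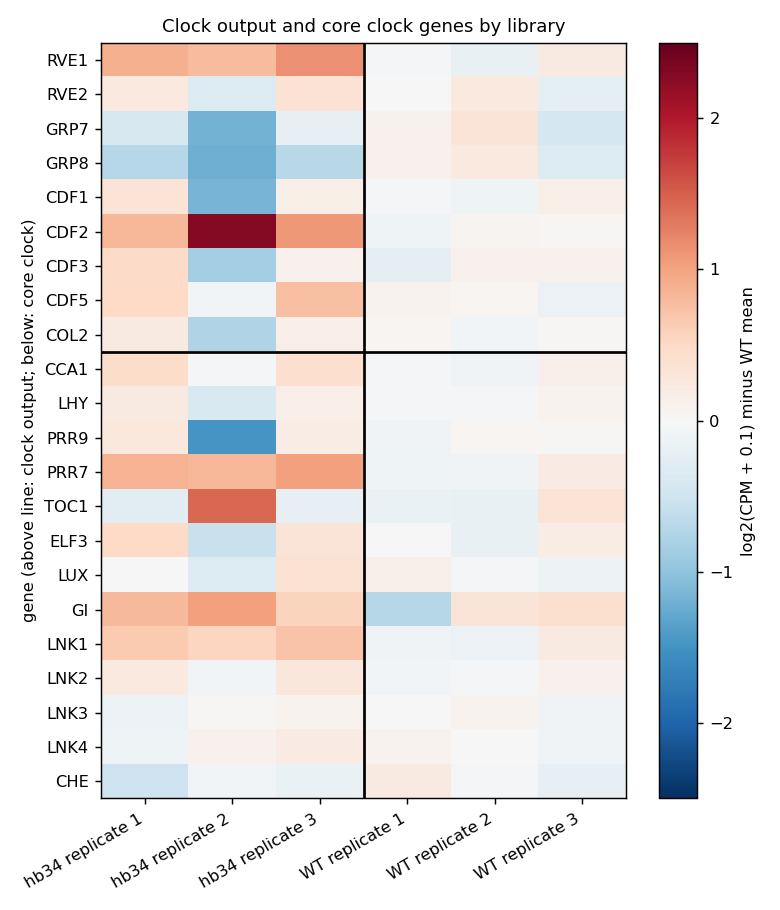
Log2(CPM + 0.1) minus the WT mean (colour) of the 9 tested clock output genes above the line and the 13 tested core clock genes below it, in each of the 6 libraries. RVE1, PRR7 and LNK1 are higher in all 3 hb34 libraries, while CDF1, CDF3, COL2 and PRR9 are lower, and CDF2 and TOC1 highest, in hb34 replicate 2.

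Family relatives of the 10 genes (other RVE, DOF, LOV F-box, GRP and COL genes) gave 0 calls in 26 tested of 31 with edgeR, and by unadjusted p under 0.05 had 5 higher and 0 lower (16.5% and 13.3% over all tested genes). The DESeq2 count was 1 higher, and that of limma-voom 0. BBX14 (AT1G68520), a CO-like gene, had 19.1, 188.8 and 27.6 CPM in hb34 and 11.1, 8.90 and 11.9 CPM in WT (log2 fold change 2.88, adjusted p = 0.0796). Without hb34 replicate 2 its log2 fold change was 1.13 (adjusted p = 0.0143), and DESeq2 called it (0.029). BBX15 (AT1G25440), another CO-like gene, had 402.3 ± 150.2 CPM in hb34 and 257.0 ± 13.0 CPM in WT, and AT4G01280 43.8 ± 3.75 CPM in hb34 and 35.0 ± 0.719 CPM in WT (SD, n = 3 each), with adjusted p of 0.123 and 0.117. With hb34 replicate 2 left out the log2 fold change was 0.30 beside 0.65 for BBX15, and 0.35 beside 0.32 for AT4G01280.

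In the photoperiodic flowering list, which holds photoreceptors and regulators of CO as well as its targets, 0 of 19 tested genes of 23 passed with edgeR, although by unadjusted p under 0.05 the numbers were 7 higher and 0 lower (16.5% and 13.3% over all tested genes), and the median log2 fold change was 0.40. The DESeq2 count was 5 higher (CRY1, CRY2, PHYB, TEM2 and FBH3) and limma-voom 0, and without hb34 replicate 2 edgeR called 2 higher (PHYB and SPA3). The targets of the CDF repressors were hardly read. CO had 0.154 to 0.590 CPM in hb34 and 0.153 to 0.652 CPM in WT, and FT, the mobile flowering signal, 0 to 0.514 CPM in hb34 and 0 to 0.237 CPM in WT. With TSF and CIB1, which had 0 counts in all libraries, they were the 4 genes not tested. TEM2, a repressor of FT, had 22.5, 161.6 and 85.4 CPM in hb34 and 19.8, 16.9 and 16.0 CPM in WT (adjusted p = 0.0594; 0.0536 without hb34 replicate 2, with a log2 fold change of 1.62 beside 2.35). The blue-light receptor genes CRY1 (127.1 ± 38.4 CPM in hb34 and 74.6 ± 7.38 CPM in WT) and CRY2 (37.9 ± 5.51 CPM in hb34 and 26.4 ± 1.64 CPM in WT; SD, n = 3 each) had adjusted p of 0.0704 and 0.0692. With hb34 replicate 2 left out the log2 fold change was 0.51 beside 0.77 for CRY1, and 0.41 beside 0.52 for CRY2.

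Of 13 tested genes among 17 other rhythmic or RVE1-related outputs, 1 rose and 0 fell with edgeR (by unadjusted p under 0.05, 5 higher and 2 lower, beside 16.5% and 13.3% of all tested genes). The DESeq2 count was 3 higher (GBSS1, PIF4 and BAM3) and 2 lower (BBX18 and PORA), and limma-voom 1 and 0. The gene that rose was BAM3, which encodes a plastid beta-amylase of starch breakdown, at 1289.3, 1164.6 and 1258.6 CPM in hb34 and 715.2, 713.7 and 833.0 CPM in WT (log2 fold change 0.71, SE 0.105, adjusted p = 0.0169; 0.76 with hb34 replicate 2 left out). Leaving out WT replicate 1 or WT replicate 2 ended the call (adjusted p = 0.0891 and 0.0949), as it did for nearly all genes. GBSS1, a starch synthase gene, had 2379.5 ± 159.5 CPM in hb34 and 1789.7 ± 192.7 CPM in WT, and BBX18, a B-box gene, 106.8 ± 19.7 CPM in hb34 and 158.4 ± 4.15 CPM in WT (SD, n = 3 each), with adjusted p of 0.0692 and 0.061. With hb34 replicate 2 left out the log2 fold change was 0.46 beside 0.41 for GBSS1, and -0.42 beside -0.57 for BBX18.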

How the data were processed

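RNA of 3 hb34 and 3 WT samples was read from both ends on an Illumina machine, according to the extract protocol. Each file holds raw counts per gene, summed over exons, as the authors deposited them. HISAT2 2.1.0, DESeq2 1.30.1 and TAIR10 appear in the submitters' processing notes, with no roles. Which program counted, whether by strand, and what it did with multiply matching reads the sources used here do not say. Coordinates count from 1 and fit RefSeq TAIR10.1: 37968 of 37971 matched genes lay inside the same gene and 0 ran past a sequence end. Genes passed filterByExpr at a count of 10 and a total of 15, and TMM set the scaling. The model (edgeR 4.0.16, R 4.3.3, glmQLFit with legacy FALSE) had genotype as its single term, with Benjamini-Hochberg adjustment over 17905 genes, two-sided. Tested genes held at least 99.891% of the counts of a library. Log2 CPM have a prior count of 2; 95% intervals come from the fit, and floors cover counting error only. Library pairs within a group differed by at least 13.6 times the Poisson variance, so none was a repeated deposit. Alternatives used DESeq2 1.42.0 and limma 3.58.1, and the fit was tested on simulated counts.

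Members and lists (6 lists, 106 genes) were chosen with earlier results of these data known. Named were the 10 genes, HB34, genes overlapping any of the 10, and list members past an adjusted p of 0.05. Also named were the 3 members with the smallest p of the relatives, photoperiod and other outputs lists, and 4 of the core clock list. For each tested one of the 10, the most similar gene whose log2 CPM averaged 3 or more was named too. CO, FT, TSF, CIB1, PRR9, TOC1, SPA3, the further genes DESeq2 called and the paralog ratios were chosen after their values were seen.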

Additional observations from a re-analysis of the deposited data

How the results depend on the processing

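Under 15 alternatives the log2 fold change of RVE1 lay between 0.84 and 1.08 and that of GRP8 between -1.02 and -0.72, while CDF2 ranged from 0.97 to 1.82. RVE1 kept its call in 11 and GRP8 in 8. For the 10 clock output genes the number higher, 1 in the reported fit, was 2 with upper quartile scaling, library size only, no filter and DESeq2, and 0 to 2 leaving out 1 library. The number lower, also 1, was 0 with library size only and limma-voom and 0 to 1 leaving out 1 library. The core clock list had 1 gene higher with upper quartile scaling and 0 to 2 leaving out 1 library. The relatives had 1 higher with DESeq2, and 0 to 1 higher and 0 to 1 lower leaving out 1 library. The photoperiod list had 1 higher with library size only, 5 with DESeq2 and 0 to 3 leaving out 1 library. The other outputs had 3 higher and 2 lower with DESeq2, and 0 to 1 higher leaving out 1 library. Over all genes DESeq2 called 1652 higher and 1012 lower, and leaving out 1 library gave 1 to 853 higher and 2 to 503 lower. The low ends are without WT replicate 1 (1 higher, 2 lower) and without WT replicate 2 (1 and 3), where 3347 and 3488 genes had an unadjusted p under 0.05. Upper quartile scaling moved the median of all genes to -0.08 and the calls to 536 higher and 615 lower, against 675 and 447 in the reported fit. The cause of these changes was not tested.

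Replicate numbers did not pair the libraries (correlations of deviations -0.097, -0.115 and -0.263). With the replicate number as a block, 0 of the 10 genes were higher and 0 lower, 0 core clock genes and 0 other outputs were higher, and 2 genes in all were higher and 3 lower, with 3928 at an unadjusted p under 0.05.

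FKF1, CO and FT lay near the floor of 3 counts, and CDF5 had 32 to 61 counts a library. A difference in these genes is hard to detect at this depth. Why their levels were low was not tested, and the hour of harvest is not given.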
